A study of Homo sapiens with 8 samples.

Results

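Histone messenger RNAs, replication-dependent and variant, were examined in DND41, a human cell line established from a T-cell acute lymphoblastic leukaemia (T-ALL), after knockdown of SIRT1, a nuclear deacetylase that uses NAD and acts on histones among other proteins. The members are the rows whose symbol starts with HIST1H to HIST4H, H2AF or H3F3, or is H1F0 or H1FX, with a mean above 0, and they numbered 75 of 18133 genes. They split into 54 replication-dependent genes (the HIST symbols), 12 variant genes and 9 annotated pseudogenes. The replication-dependent genes encode 4 linker histones H1, 11 H2A, 15 H2B, 13 H3 and 11 H4. Of the 75 members, 55 reached the mean of 10 normalized counts required for a test, namely 46 replication-dependent genes, 8 variants and 1 pseudogene, and the other 20 did not.

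All cells carried a doxycycline-inducible short hairpin RNA (shRNA) and received doxycycline for 72 h. The groups were a first construct against SIRT1 (sh1, libraries A, B and C), another construct against SIRT1 (sh3, libraries A, B and C) and a control shRNA (shC, libraries A and C). The genotype label of both SIRT1 groups reads Sirt1 Inhibited, and the labels do not say what the numbers 1 and 3 stand for, whether a line was 1 clone, or whether libraries came from separate infections. P-values therefore measure the spread between these libraries, which may be technical. Library sh3 C is named a control in its description and a SIRT1 knockdown in its title and genotype. It was kept in sh3. Calls of single genes that were lost without it are given with and without it, as are the sh3 sums of replication-dependent genes. Medians by class and histone type include it unless stated.

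The core histones H2A, H2B, H3 and H4 form the nucleosome, and the linker histone H1 binds where DNA enters and leaves it. Replication-dependent histone genes lie in clusters and are transcribed mainly in S phase, and their messenger RNAs end in a stem-loop that the protein SLBP binds in place of a poly(A) tail. Variant (replacement) histones such as H3.3, H2A.Z, macroH2A and H1.0 come from polyadenylated messenger RNAs made throughout the cell cycle and are placed in chromatin by dedicated chaperones.

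The sequences that set the classes apart stand first, since the levels below are read by class. The stem-loop is 16 bases long, and its arms are in capitals in the DNA sequences here, taken from GENCODE 29 transcripts on GRCh38. Of the 54 replication-dependent gene models, 31 run past the stop codon and 28 of these hold a stem-loop there. Among the variants only H2AFX, the H2A variant phosphorylated at DNA breaks, holds one.
HIST1H4B, HIST1H4E, HIST1H4H, HIST1H4J and HIST4H4: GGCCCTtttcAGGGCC
HIST1H4I, HIST2H4A and HIST2H4B: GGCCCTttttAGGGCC
14 genes of H2A, H2B and H3, among them HIST2H2AA4, HIST1H2BH and HIST1H3H: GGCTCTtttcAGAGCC
HIST1H2BC, HIST1H2BD, HIST1H2BF and HIST1H3G: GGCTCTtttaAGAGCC
HIST1H3E: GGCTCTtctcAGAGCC
HIST1H2AG: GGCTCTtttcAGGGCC
H2AFX: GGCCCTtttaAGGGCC

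The H4 models share a GGCCCT arm, and every other replication-dependent model with a stem-loop has a GGCTCT arm. Of 19669 coding genes in the annotation, 182 (0.925%) hold a match to the stem-loop pattern anywhere in a transcript, and 33 of these carry a histone symbol by the same rule. The pattern did not require the arms to pair, so a match in another gene need not be a stem-loop. In 21 of the 28 replication-dependent models the transcript runs more than 100 bases past the stem-loop, so these models include a longer, downstream end.

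Promoters are shown for the members that the results turn on and for which RefSeq (GRCh38.p14) held a sequence that does not overlap the gene's own GENCODE model. Each stretch is the 150 bases before the start, 5′ to 3′, and capitals mark 4 motifs on either strand. They are the CCAAT box, the TATA box as TATAAA, the AC box of H1 promoters as AAACACA, and the octamer of H2B promoters as ATTTGCAT. HIST1H1C, HIST1H1D and HIST1H1E encode linker histones, HIST1H2BF and HIST1H2BH encode H2B, and H1FX encodes a replacement linker histone.
HIST1H1C, chr6:26056471-26056620, minus strand: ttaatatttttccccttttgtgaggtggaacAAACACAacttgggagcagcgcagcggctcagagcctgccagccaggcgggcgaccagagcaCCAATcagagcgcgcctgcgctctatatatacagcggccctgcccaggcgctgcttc
HIST1H1D, chr6:26234988-26235137, minus strand: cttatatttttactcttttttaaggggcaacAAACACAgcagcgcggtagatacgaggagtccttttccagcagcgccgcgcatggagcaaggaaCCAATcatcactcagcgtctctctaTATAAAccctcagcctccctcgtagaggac
HIST1H1E, chr6:26156179-26156328, plus strand: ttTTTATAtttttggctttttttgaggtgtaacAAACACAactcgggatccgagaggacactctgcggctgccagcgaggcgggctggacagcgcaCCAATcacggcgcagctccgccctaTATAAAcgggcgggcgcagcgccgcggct
HIST1H2BF, chr6:26199366-26199515, plus strand: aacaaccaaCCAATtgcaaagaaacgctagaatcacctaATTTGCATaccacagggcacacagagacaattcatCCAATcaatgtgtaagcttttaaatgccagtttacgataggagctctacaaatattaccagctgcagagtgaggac
HIST1H2BH, chr6:26251464-26251613, plus strand: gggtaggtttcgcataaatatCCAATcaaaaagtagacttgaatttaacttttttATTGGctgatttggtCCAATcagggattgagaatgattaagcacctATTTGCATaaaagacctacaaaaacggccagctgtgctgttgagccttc
H1FX, chr3:129316287-129316436, minus strand: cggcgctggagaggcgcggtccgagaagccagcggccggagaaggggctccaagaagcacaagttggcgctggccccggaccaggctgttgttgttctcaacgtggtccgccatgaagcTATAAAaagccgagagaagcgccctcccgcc

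In the linker histone promoters AAACACA began 119 bases before the start in HIST1H1C and HIST1H1D and 117 bases before it in HIST1H1E, with CCAAT between 54 and 57 bases before the start in all 3. Within 250 bases before the start, AAACACA was found in 4 of 4 replication-dependent H1 promoters and in none of the other 42 replication-dependent ones. Among variants it was found in 1 of 10 promoters, that of H3F3A, and over all 35116 RefSeq promoters in 4.82%. The octamer was found in 7 of 9 H2A and 11 of 15 H2B promoters and in no replication-dependent H1, H3 or H4 promoter, against 1.63% of all promoters. These counts are not separate sites. The promoters of HIST1H2AC and HIST1H2BC overlap on opposite strands and share an octamer, as do those of HIST1H2AD and HIST1H2BF. Among variants the octamer was found in 1 of 10 promoters, that of H3F3B. CCAAT was found in 39 of 46 replication-dependent promoters, but in only 2 of 9 for H4, and in 8 of 10 variant promoters, against 32.0% of all. TATAAA was found in 28 of 46 and 4 of 10, against 10.7%. These matches describe the letters and are not binding sites.

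SIRT1 itself was lower with both constructs. Its values were 1745 and 1920 normalized counts in the controls A and C, 1259, 1312 and 1329 in sh1 A, B and C, and 1099, 1217 and 1179 in sh3 A, B and C. The groups did not overlap, and SIRT1 fell by 0.57 ± 0.063 (log2, SE; limma adjusted p = 0.000297). Normalized counts summed to between 33.1 and 34.1 (in units of 1000000) per library, and the number of reads behind them is not known. Across tested genes, sh3 C had a Spearman correlation of at least 0.9955 with the other sh3 libraries and at most 0.9925 with the controls. Markers of T cells and thymocytes were present in every library, with CD3E between 18528 and 26148. Of the myeloid markers LYZ reached at most 15.3 and CD68 lay between 193 and 269, and of the B cell markers PAX5 reached at most 5.49, CD79B lay between 389 and 677 and CD79A between 17609 and 25708.

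Variant histones supplied nearly all of the histone signal in the deposited values. The 12 variant genes summed to between 0.428% and 0.465% of a library, and the 54 replication-dependent genes to between 0.00957% and 0.0136%. Per kilobase of annotated transcript, the control means were 31899 for H2AFZ (H2A.Z), 20565 for H3F3B and 18840 for H3F3A (both H3.3), 12785 for H2AFY (macroH2A), 12243 for H1FX, 10465 for H2AFV (a further H2A.Z gene), 10453 for H1F0 (H1.0) and 3034 for H2AFX. The highest replication-dependent gene by this measure was HIST1H4J at 783, followed by HIST2H2AA4 at 476, HIST1H2BD at 326 and HIST1H1C at 274. Between H2AFV and H1F0 the control libraries overlapped, since they ranged from 10388 to 10541 and from 10390 to 10516 per kilobase, and H2AFY and H1FX did not overlap. The sources used here do not say whether polyadenylated RNA was selected. The replication-dependent levels may therefore leave out transcripts without a poly(A) tail, and the share of each class in all histone messenger RNA is not known. For the same reason a change in all transcripts of a replication-dependent gene and a change in its polyadenylated share cannot be told apart. In such bulk libraries fewer cells in S phase and less RNA per cell cannot be told apart either.

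With SIRT1 knockdown, averaged over both constructs, the linker histone genes H1FX and HIST1H1C, the H2B gene HIST1H2BF and the H4 gene HIST1H4A rose. The H3.3 gene H3F3A and the macroH2A gene H2AFY fell, and most other histone genes did not pass the test. None of these genes passed with each construct taken singly. HIST1H1C and H2AFY passed with sh1, H1FX, H3F3A and HIST1H4A with sh3, and HIST1H2BF with neither. The other H3.3 gene, H3F3B, fell with sh3 only, and the constructs differed for it by limma (adjusted p = 0.000906). A gene was called where limma's Benjamini-Hochberg adjusted p over all 13885 tested genes was under 0.05. Averaged over both constructs, 7 of 55 members were called, beside 12.7% of all tested genes, so as a group histone genes were called about as often as other genes. The 4 members called higher, beside 6.55% of all genes, were H1FX, HIST1H1C, HIST1H2BF and HIST1H4A. The 3 called lower, beside 6.19% of all genes, were H2AFY, H3F3A and H3F3B.

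All 3 called replication-dependent genes rose, and 34 of 46 had a change above 0, with a median of 0.24 against -0.0022 over all tested genes. Of the 8 variants, 1 rose and 3 fell, and their median was -0.09. The precision differed too, since the median standard error was 0.23 for replication-dependent genes and 0.049 for variants, so that changes of the size seen in variants were not detectable in most replication-dependent genes.

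**Figure D1:**
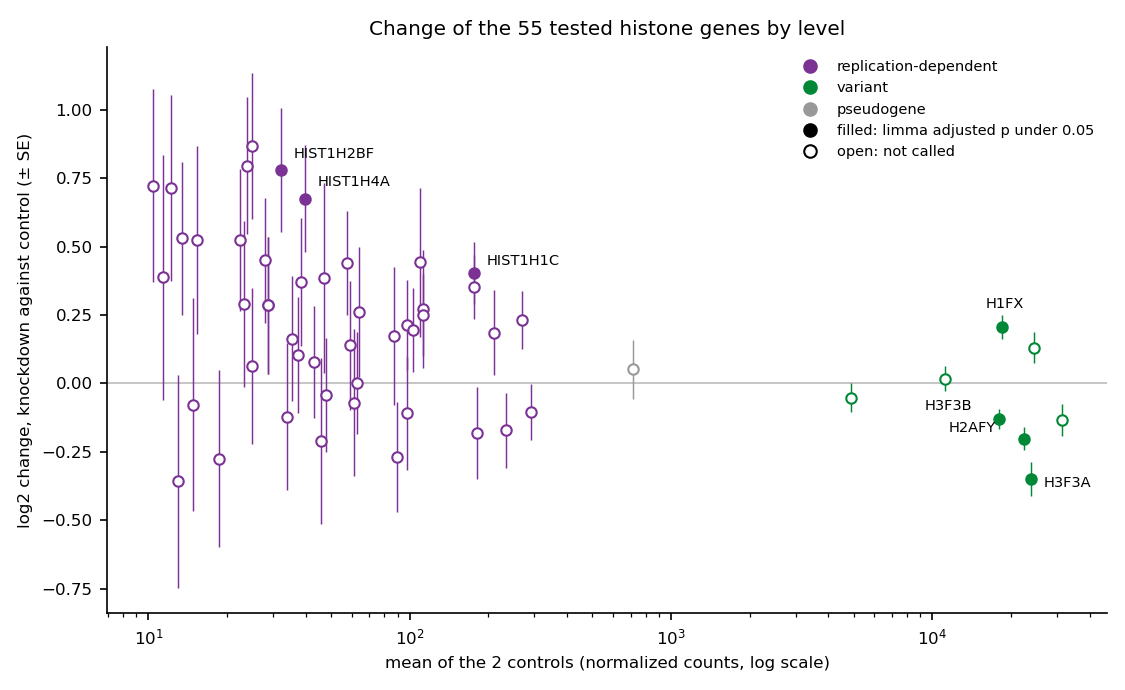
Log2 change of the 55 tested histone genes, knockdown (mean of sh1 and sh3) against control, against the mean of the 2 controls in normalized counts on a log axis. Bars are the standard error from limma. Filled points are called genes. Replication-dependent genes sit at the low end with wide bars and a median of 0.24, and the 8 variants at the high end with narrow bars.

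H1FX (chr3:129314771-129316277, GENCODE 29 on GRCh38) encodes a replacement linker histone. Its values were 18317 and 18583 in the controls, 20446, 20266 and 21102 in sh1 and 22886, 22490 and 20714 in sh3. Every knockdown library lay above both controls. Of the 31-base words of H1FX, 80.4% occurred in no other gene and 19.6% were shared with H1FX-AS1, so a part of the reads could be split. H1FX rose by 0.21 ± 0.044 (log2, SE; limma adjusted p = 0.0126), and by 0.23 without sh3 C (limma adjusted p = 0.00539). Without control A or without control C it missed the threshold (limma adjusted p = 0.0812 and 0.0956), as it did with no variance trend (limma adjusted p = 0.0716).

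H1F0, the variant H1 gene with the most normalized counts but fewer per kilobase than H1FX, encodes H1.0, a linker histone that accumulates in differentiating and non-dividing cells. It measured 24355 and 24649 in the controls, 28282, 28246 and 28499 in sh1, and 26778, 26691 and 22835 in sh3. Only sh3 C lay below the controls, while the other 5 knockdown libraries lay above them. The change was 0.13 ± 0.057 and was not called (limma adjusted p = 0.155). Without sh3 C it was 0.17 and passed the threshold (limma adjusted p = 0.0159).

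H3F3A (chr1:226061851-226072001) and H3F3B (chr17:75776434-75785893) encode the same H3.3 protein. H3F3A measured 23282 and 24364 in the controls, 17802, 20952 and 21147 in sh1 and 17382, 16976 and 18385 in sh3. All 6 knockdown libraries lay below both controls, and sh1 A lay closer to sh3 than to sh1 B and C. H3F3A fell by 0.35 ± 0.063 (log2, SE; limma adjusted p = 0.00547), the largest fall among the variants, and the fall was 0.37 without sh3 C (limma adjusted p = 0.0076). It missed the threshold without control C (limma adjusted p = 0.0892) and with no variance trend (limma adjusted p = 0.057).

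H3F3B measured 17756 and 18310 in the controls, 17702, 18306 and 18054 in sh1, and 14983, 15034 and 15243 in sh3. The sh1 libraries overlapped the controls, and the sh3 libraries lay below every other library. Its mean change, a fall of 0.13 ± 0.036 (limma adjusted p = 0.0393), came from sh3 alone, where it fell by 0.26 (limma adjusted p = 0.00163), while the difference with sh1 was -0.00097 (95% interval -0.09 to 0.088; limma adjusted p = 0.992). The constructs differed by 0.26 ± 0.036 (limma adjusted p = 0.000906). Over both constructs the call was lost when either control was left out, or sh1 B, or one of sh3 A and sh3 B, with no variance trend and with the replicate block, with limma adjusted p-values up to 0.278. Of their 31-base words, 87.8% for H3F3A and 90.1% for H3F3B occurred in no other gene, and H3F3AP4 and H3F3C held most of the shared words, so a small part of their reads could be split. H3F3B also overlaps UNK on the opposite strand.

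H2AFY (chr5:135333900-135399914) encodes macroH2A, an H2A with a large extra domain found in silent chromatin. It measured 22255 and 22581 in the controls, 18068, 19191 and 17891 in sh1 and 20682, 20111 and 21229 in sh3. The groups did not overlap, with sh1 lowest and sh3 between sh1 and the controls. H2AFY fell by 0.20 ± 0.041 over both constructs (limma adjusted p = 0.00976) and by 0.29 ± 0.046 with sh1 (limma adjusted p = 0.0058), and with sh3 the difference was -0.12 (limma adjusted p = 0.102). The constructs differed by -0.17 ± 0.041, sh1 minus sh3 (limma adjusted p = 0.0213), and without sh3 C the difference missed the threshold (-0.15, limma adjusted p = 0.0732). The call over both constructs was lost without control C (limma adjusted p = 0.11) and with no variance trend (limma adjusted p = 0.0615). C5orf66, which shares words with H2AFY, leaves 70.7% of them to H2AFY alone.

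The other H2A variants were not called. H2AFZ, the most abundant histone gene, measured 30213 and 32244 in the controls, 26696, 30031 and 31904 in sh1 and 27865, 26908 and 27721 in sh3. The sh3 libraries lay below both controls and the sh1 libraries overlapped them. Its difference was -0.13 ± 0.059 (limma adjusted p = 0.164). H2AFV differed by 0.017 ± 0.046 and H2AFX by -0.051 ± 0.051, with limma adjusted p-values of 0.849 and 0.563.

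**Figure D2:**
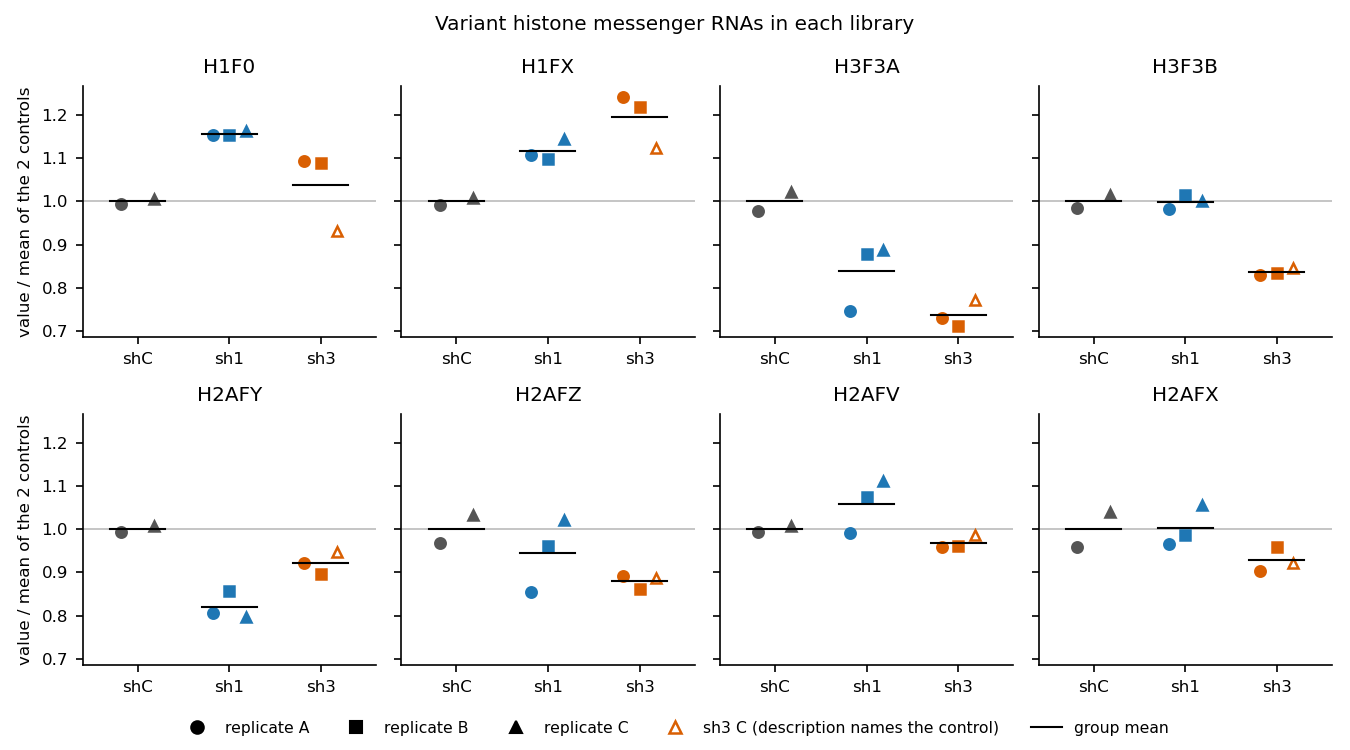
Value of each of the 8 tested variant histone genes in each library, divided by the mean of the 2 controls (grey line at 1). Points are libraries, bars are group means, and the open triangle is sh3 C. H1FX is above the controls in all 6 knockdown libraries, H3F3A and H2AFY are below them in all 6, and H3F3B is lower in the 3 sh3 libraries only.

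HIST1H1C (chr6:26055787-26056428, on the minus strand) encodes H1.2 and was the most abundant replication-dependent H1 gene. Its values were 190 and 162 normalized counts in controls A and C, 248, 249 and 275 in sh1, and 200, 221 and 211 in sh3. All 6 knockdown libraries lay above both controls, and the sh1 libraries lay above the sh3 libraries. HIST1H1C rose by 0.40 ± 0.11 (log2, SE; limma adjusted p = 0.0364) and by 0.55 ± 0.12 with sh1 (limma adjusted p = 0.0274), and with sh3 the difference was 0.26 (limma adjusted p = 0.174). The constructs did not pass the test against each other (0.29, 95% interval 0.043 to 0.53; limma adjusted p = 0.126). The call over both constructs missed the threshold without sh3 C (0.40, limma adjusted p = 0.0539), and also without sh1 B, sh1 C, sh3 A or sh3 B, without either control, and with the replicate block. Without control C the change was 0.29 (limma adjusted p = 0.323), and without sh1 A the call remained.

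HIST1H1D and HIST1H1E, which encode H1.3 and H1.4, rose with sh3. HIST1H1D measured 30.4 and 19.5 in the controls, 26.9, 34.8 and 38.3 in sh1, and 52.4, 56.0 and 81.4 in sh3. The sh3 libraries lay above all others, sh1 overlapped the controls, and sh3 C was highest. HIST1H1D rose by 1.31 ± 0.30 with sh3 (limma adjusted p = 0.0114), and by 1.12 without sh3 C (limma adjusted p = 0.0386). This sh3 call was lost without control C. Over both constructs its change was 0.87 ± 0.27 (limma adjusted p = 0.0541).

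HIST1H1E measured 54.8 and 60.4 in the controls, 53.8, 70.5 and 65.9 in sh1, and 78.6, 109 and 109 in sh3. Again the sh3 libraries lay above the rest and sh1 overlapped the controls. HIST1H1E rose by 0.75 ± 0.21 with sh3 (limma adjusted p = 0.0326), and without sh3 C the change of 0.67 missed the threshold (limma adjusted p = 0.0866). This sh3 call was also lost without sh3 B, without either control and with the replicate block. The fourth H1 gene, HIST1H1B (H1.5), was low, with 7.16 to 27.4 normalized counts. It measured 18.2 and 11.3 in the controls, 9.69, 7.16 and 9.57 in sh1, and 12.6, 27.4 and 25.7 in sh3. The sh1 libraries lay below both controls, and sh3 overlapped the controls. Its change over both constructs, -0.077 ± 0.39, was not called.

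Among the core histone genes, HIST1H2BF and HIST1H4A rose over both constructs. HIST1H2BF measured 38.9 and 25.5 in the controls, 57.9, 58.3 and 59.8 in sh1, and 41.6, 54.1 and 60.1 in sh3. Every knockdown library lay above both controls, although sh3 A was close to control A. HIST1H2BF rose by 0.78 ± 0.23 (limma adjusted p = 0.0444; 0.72 and adjusted p = 0.0724 without sh3 C). Without control C the change was 0.49 (limma adjusted p = 0.384), and the call remained only without sh3 A or control A when single libraries were left out.

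HIST1H4A (chr6:26021679-26021990) measured 36.8 and 42.8 in the controls, 44.4, 63.2 and 53.6 in sh1, and 71.9, 76.1 and 82.7 in sh3. The groups did not overlap, with sh3 highest. HIST1H4A rose by 0.68 ± 0.20 (limma adjusted p = 0.0438) and by 0.94 ± 0.22 with sh3 (limma adjusted p = 0.0132; 0.88 and adjusted p = 0.0386 without sh3 C). Over both constructs, without sh3 C, its change was 0.65 (limma adjusted p = 0.0716), and that call remained only without sh1 A when single libraries were left out. The sh3 call of HIST1H4A was lost when either control was left out.

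HIST1H3B, an H3.1 gene, measured 26.7 and 20.9 in the controls, 29.2, 40.2 and 32.2 in sh1, and 44.3, 47.0 and 66.9 in sh3. The groups did not overlap, and sh3 C was highest. With sh3 it rose by 1.10 ± 0.28 (limma adjusted p = 0.0193), and without sh3 C the change of 0.92 missed the threshold (limma adjusted p = 0.059). This sh3 call was also lost without control C and with the replicate block. HIST1H2BH measured 171 and 182 in the controls, 189 to 230 in sh1 and 218 to 250 in sh3, and rose by 0.43 ± 0.13 with sh3 (limma adjusted p = 0.0435; 0.39 and adjusted p = 0.103 without sh3 C). The sh3 call of HIST1H2BH was also lost without sh1 B, sh1 C, sh3 A or sh3 B and without either control. It was lost with no filter on low values and with the replicate block too.

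**Figure D3:**
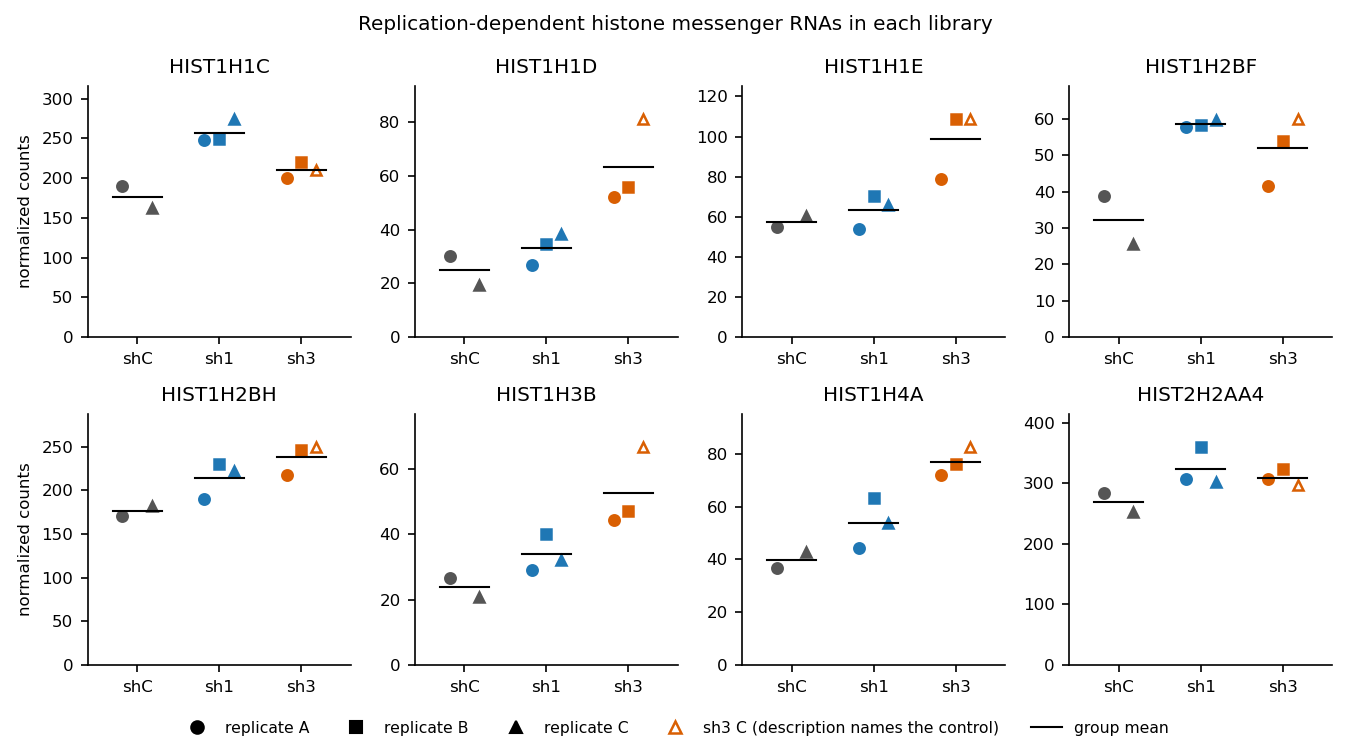
Normalized counts of 8 replication-dependent histone genes in each library, with linear axes that start at 0. Points are libraries, bars are group means, and the open triangle is sh3 C. The sh3 libraries of HIST1H1D, HIST1H1E, HIST1H3B and HIST1H4A lie above all sh1 and control libraries, and HIST1H1C is highest in sh1.

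No replication-dependent H2A gene was called. The most abundant, HIST2H2AA4, measured 284 and 253 in the controls, 307, 361 and 301 in sh1 and 306, 323 and 297 in sh3. All 6 knockdown libraries lay above both controls, but its change of 0.23 ± 0.10 was not called (limma adjusted p = 0.169). HIST1H2AH had a large uncalled change of 0.72 ± 0.35 at 8.40 to 25.1 normalized counts (limma adjusted p = 0.206). Only 2.81% of the words of HIST2H2AA4 are its own, since HIST2H2AA3 has nearly the same transcript, so this row is uncertain.

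The H2B, H3 and H4 genes with the most normalized counts did not pass the test either. HIST1H2BD differed by 0.19 ± 0.15, HIST1H3H by 0.14 ± 0.24 and HIST1H4J by -0.10 ± 0.10, with limma adjusted p-values of 0.472, 0.752 and 0.557. Per kilobase HIST1H3H (47.6 in the controls) lay below HIST1H3I (68.0) and HIST1H3B (57.9). HIST1H4J keeps 17.8% of its words and shares the rest mainly with HIST1H4K. Identical values were deposited for HIST2H3A and HIST2H3C, which share all of their words, so they stand for a single measurement and enter the counts and sums as 2 rows.

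By histone type, the medians of the replication-dependent changes were 0.42 for 4 H1 genes, 0.30 for 8 H2A genes, 0.00083 for 13 H2B genes, 0.22 for 10 H3 genes and 0.27 for 11 H4 genes. H2B genes lay on both sides of 0, with 7 of 13 above it, against 27 of 33 in the other types. Genes whose model ends at the stop codon had a median of 0.43 over 16 tested genes, and those running more than 100 bases past the stem-loop a median of 0.18 over 20. Members with at least 50% of their words to themselves had a median of 0.27 (36 genes), and the rest 0.13 (10 genes).

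Counting libraries in place of p-values, 11 of 55 members had all 6 knockdown libraries above both controls, beside 11.9% of all tested genes. Of these 10 were replication-dependent, namely HIST1H1C, HIST2H2AA4, HIST1H2AE, HIST1H2BF, HIST1H2BH, HIST1H3B, HIST1H3C, HIST1H3I, HIST1H4A and HIST1H4I, and the other was H1FX. Only H3F3A and H2AFY had all 6 below both controls, 2 of 55 beside 11.4% of all genes. HIST1H4I and HIST1H2AE, which met the rule without being called, changed by 0.25 ± 0.15 and 0.37 ± 0.23.

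Summed by type, linker histone signal was higher and H3.3 signal lower in each knockdown library. The 4 replication-dependent H1 genes summed to 294 and 253 in the controls, 338, 362 and 389 in sh1 and 344, 413 and 427 in sh3. The 2 variant H1 genes summed to 42672 and 43232 in the controls, 48728, 48512 and 49601 in sh1 and 49663, 49182 and 43549 in sh3, where sh3 C was barely above the higher control. The variant H3 genes summed to 41040 and 42675 in the controls, 35508, 39258 and 39203 in sh1 and 32365, 32010 and 33629 in sh3. Relative to the control mean, the mean of both constructs was 1.38 for replication-dependent H1, 1.12 for variant H1 and 0.844 for variant H3.

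The 7 variant H2A genes also summed to less than both controls in all 6 knockdown libraries, with 68254 and 71177 in the controls, 60570 to 67376 in sh1 and 62454 to 64483 in sh3. Among replication-dependent core histones, the H2B sums overlapped the controls with both constructs, the H2A sums with sh3, and the H3 and H4 sums with sh1. The sh1 libraries lay above both controls for H2A (799 to 931 against 749 and 788). The sh3 libraries did so for H3 (363 to 445 against 288 and 325) and H4 (1124 to 1502 against 1002 and 1092). Replication-dependent H2A, H2B, H3 and H4 stood at 1.11, 1.10, 1.19 and 1.12 of control, and variant H2A at 0.919. Over all 54 replication-dependent genes the sums were 3408 ± 208 (SD, n = 2) in shC, 3779 ± 316 (SD, n = 3) in sh1 and 3977 ± 471 (SD, n = 3) in sh3. The sh1 and control ranges overlapped, since control A at 3555 lay above sh1 A at 3415. The sh3 libraries, at 3592, 3837 and 4502 in A, B and C, lay above both controls. Without sh3 C the sh3 mean was 3715. By type, the sh3 means stood at 1.44 (H1), 1.08 (H2A), 1.08 (H2B), 1.30 (H3) and 1.21 (H4) of control with sh3 C. Without it they stood at 1.38, 1.03, 1.01, 1.23 and 1.09. All variants together summed to 154525 ± 3620 in shC, 151600 ± 6002 in sh1 and 143673 ± 2026 in sh3.

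**Figure D4:**
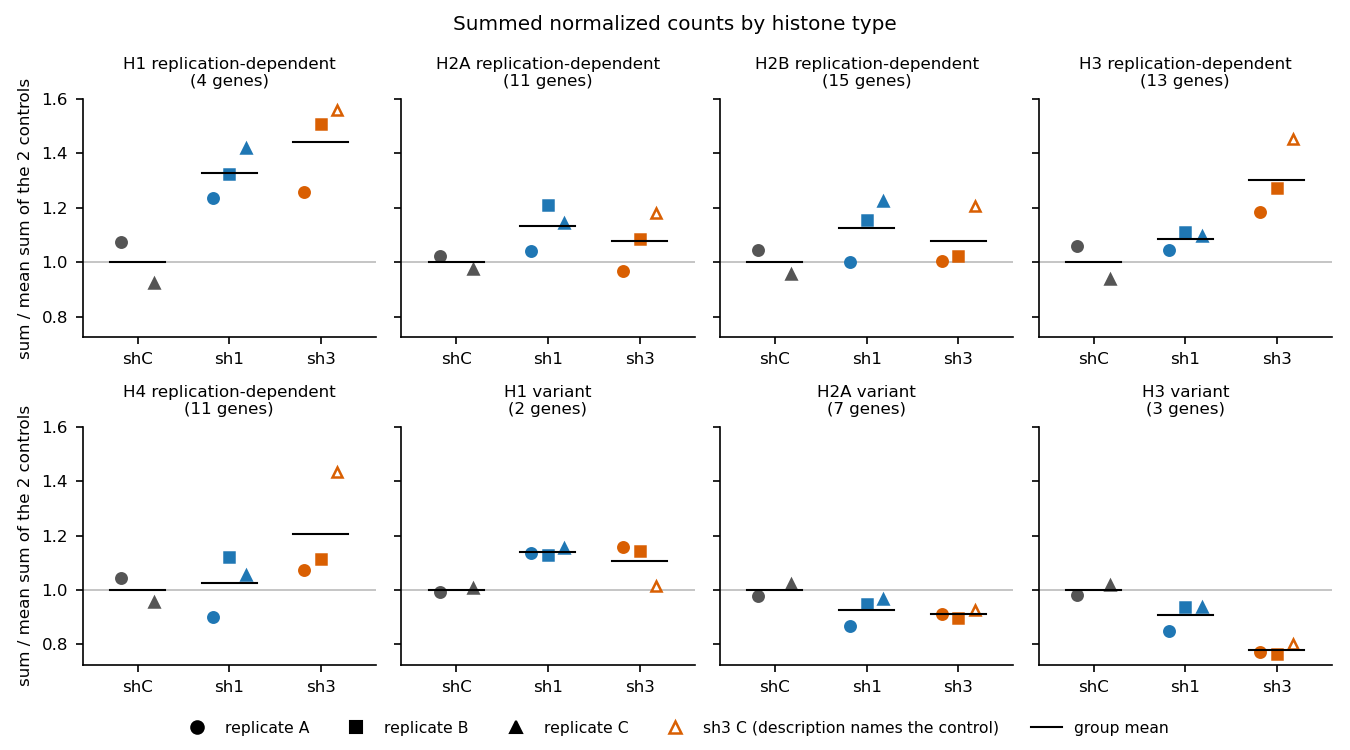
Summed normalized counts of each histone type in each library, divided by the mean sum of the 2 controls (grey line at 1). Points are libraries, bars are group means, and the open triangle is sh3 C. In all 6 knockdown libraries both H1 sums exceed the controls and the variant H3 sum is lower than the controls, and sh3 C stands apart for H4.

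The library sh3 C stood apart for replication-dependent genes. The median difference of the 46 tested genes from the control mean was 0.52 in sh3 C, 0.13 and 0.18 in sh3 A and B, and 0.10, 0.23 and 0.18 in sh1 A, B and C. The controls themselves were at 0.11 (A) and -0.11 (C), so control A overlapped the knockdown libraries. For variants, sh3 C at -0.11 did not stand apart from sh3 A at -0.13 and sh3 B at -0.11. In a list of 38 genes of S phase and DNA replication, which replication-dependent histone genes are transcribed with, the medians were 0.061 in sh3 C and 0.072 to 0.10 in the other knockdown libraries. In sh3 C the histone median was the highest among the knockdown libraries, while the S phase medians of these libraries lay close together. On the S phase list the controls were at -0.011 (A) and 0.011 (C). The part of cell cycle stage in the histone values was not tested.

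**Figure D5:**
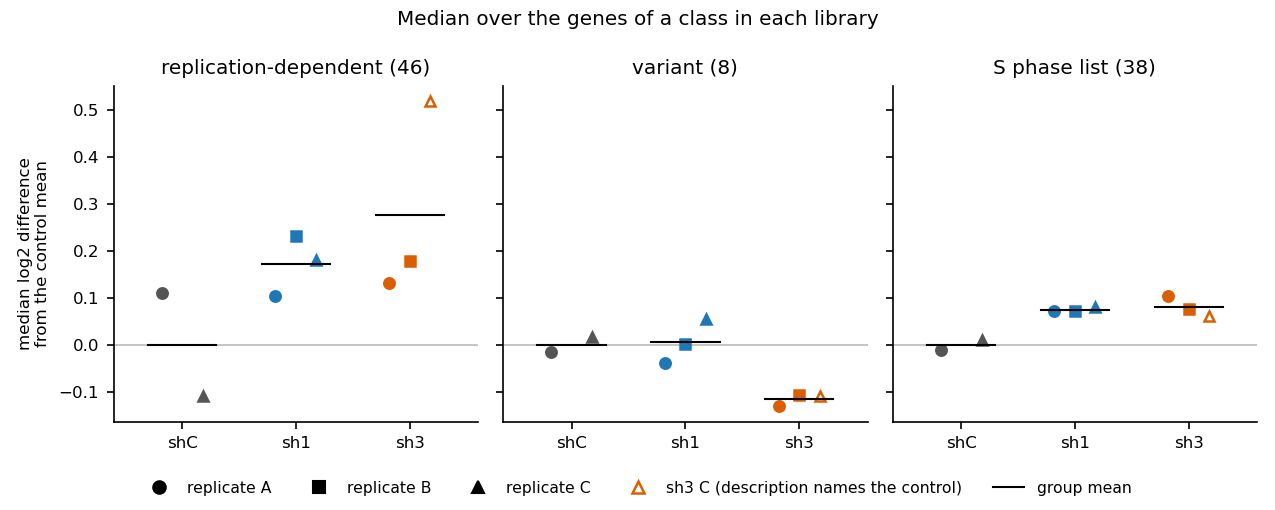
Median log2 difference from the control mean in each library, over 46 replication-dependent histone genes, 8 variant histone genes and 38 genes of S phase and DNA replication. Points are libraries, bars are group means, and the open triangle is sh3 C, which lies at 0.52 in the left panel and at 0.061 in the right panel.

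Each construct was also set against the control, and these comparisons share the control libraries. With sh1, 2 of 55 members were called, beside 6.31% of all genes, HIST1H1C higher and H2AFY lower. With sh3, 8 of 55 were called, beside 18.6% of all genes. The 6 higher, beside 9.36% of all genes, were H1FX, HIST1H1D, HIST1H1E, HIST1H2BH, HIST1H3B and HIST1H4A, and the 2 lower, beside 9.19%, were H3F3A and H3F3B. H3F3A fell by 0.44 with sh3 (limma adjusted p = 0.00184), and with sh1 its difference of -0.26 missed the threshold (limma adjusted p = 0.0535). H1FX rose by 0.25 with sh3 (limma adjusted p = 0.00536), beside 0.16 with sh1 (limma adjusted p = 0.0849).

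In the direct comparison of sh1 with sh3, 2 of 55 members were called, beside 11.4% of all genes, namely H3F3B and H2AFY as given above. None of the 46 replication-dependent genes was called by limma. An unadjusted limma p under 0.05 was found for 12 of them, beside 3614 of all 13885 tested genes, which is about the same share. The largest difference of any member, sh1 minus sh3, was -1.16 for the low gene HIST1H1B, which passed only without sh3 A. The H1 genes HIST1H1D and HIST1H1E, past the threshold with sh3 only, differed between constructs by -0.89 and -0.62, sh1 minus sh3 (limma adjusted p = 0.0528 and 0.0584). HIST1H1D passed that test with a pseudocount of 5, without control A and without control C, and HIST1H1E passed it without sh3 A.

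Genes that make, process and deposit histones were taken as lists. Of 32 genes of histone messenger RNA biogenesis 6 rose and 2 fell with knockdown, beside 6.55% and 6.19% of all tested genes, with a median of 0.042. The rises included LSM11, a protein of the U7 particle that processes the histone 3′ end, by 0.32 ± 0.063, CDK2, the S phase kinase that activates the histone gene coactivator NPAT, by 0.21 ± 0.04, and CPSF2, a subunit of the cleavage complex, by 0.18 ± 0.039 (limma adjusted p = 0.00774, 0.00822 and 0.0149). SLBP itself differed by 0.0099 ± 0.045 and NPAT by 0.041 ± 0.055, and neither was called (limma adjusted p = 0.916 and 0.68).

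Of 44 histone chaperones and exchange factors, 4 rose and 1 fell, against the same shares of 6.55% and 6.19% over all tested genes, with a median of 0.017. The fall was HIRA, a subunit of the complex that deposits H3.3 outside replication. It measured 4687 and 4552 in the controls, 3663, 3344 and 2951 in sh1 and 2689, 3054 and 3254 in sh3. All 6 knockdown libraries lay below both controls, and HIRA fell by 0.55 ± 0.083 (limma adjusted p = 0.00208).

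ATRX, which deposits H3.3 at telomeres and other heterochromatin, measured 4663 and 3842 in the controls, 5618, 5364 and 4890 in sh1 and 8121, 7759 and 6569 in sh3. The groups did not overlap, and ATRX rose by 0.57 ± 0.089 (limma adjusted p = 0.00272). A link between these changes and those of the H3.3 genes was not tested. YEATS4, a subunit of complexes that handle H2A.Z, rose by 0.34 ± 0.065 (limma adjusted p = 0.00693). The centromeric H3 gene CENPA (0.076), the H3–H4 chaperone gene ASF1B (0.066) and CHAF1A (0.014), a subunit of the replication-coupled assembly factor CAF-1, were not called.

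Of 38 genes of S phase and DNA replication 7 rose and 0 fell, where 6.55% and 6.19% of all tested genes did, with a median of 0.082. RRM2, a subunit of ribonucleotide reductase, rose by 0.25 ± 0.04, and the origin recognition genes ORC1 and ORC6 rose by 0.29 ± 0.053 and 0.25 ± 0.049 (limma adjusted p = 0.0032, 0.00561 and 0.00826). All 38 were tested.

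Cell markers also moved with knockdown. Of 14 tested markers of T cells and thymocytes 10 fell and 1, RAG1, rose, and their summed level was 156676 to 158080 in shC, 148943 to 153957 in sh1 and 142031 to 144110 in sh3. Of 3 tested B cell markers 1 fell, CD79A, which is also expressed in this line. Taken singly against the control, 1 was called lower with sh1, and with sh3 1 was called higher and 0 lower. The 5 B cell markers found summed to 24455 to 26211 in shC, 18026 to 19718 in sh1 and 24072 to 25492 in sh3. Of the 2 tested markers of adherent cells PECAM1 fell, the 1 tested myeloid marker, CD68, was not called, and no erythroid marker reached the level for a test. Their part in the histone results was not tested.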

How the data were processed

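RNA of 8 libraries was sequenced strand-specifically, per the labels. The deposited table holds a signal, counts normalized per library for each gene symbol, for which the submitters' processing notes name kallisto 0.44.0, DESeq and hg38. The sources used here do not state the annotation, any filter or the use of strand. Deposited values are not whole numbers: 30.6% to 45.9% of values below 10 lay within 0.02 of a whole multiple of a library's lowest step (0.884 to 1.15), so reads were not recovered and no count test was used.

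Values were analysed as log2(value + 1), which understates changes of low genes, where a gene's mean reached 10. A limma 3.58.1 model (R 4.3.3) held 3 group means with a trended variance prior and 5 residual degrees of freedom. Tests were two-sided, with Benjamini-Hochberg adjustment over all 13885 genes tested. The procedure was tested on simulated data. Replicate letters did not pair the libraries.

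Coordinates and transcripts are from GENCODE 29 (GRCh38), which held all 75 members, and promoters from RefSeq, which held 56. A gene's own words are the 31-base stretches of its transcripts found in no other gene. Alternatives were pseudocounts of 0.5 and 5, no filter, a minimum mean of 50, median centring, no variance trend, a replicate block, members with mostly own words, and leaving out each library. Members and lists were chosen with earlier results of these data known. Named genes were SIRT1, each called member, the most abundant member of each type and class, the 3 largest uncalled changes, up to 5 uncalled members beyond both controls, the 3 list genes with the smallest p, 5 fixed list genes and the most abundant marker of each list, of which 1 is not reported here.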

Additional observations from a re-analysis of the deposited data

Results flagged for a closer look

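The effects of the sh1 and sh3 constructs differed by a test of the difference itself for 2 histone genes. H3F3B was higher with sh1 than with sh3 by 0.26 on the log2 scale (limma adjusted p = 0.000906), with all 3 sh3 libraries below all 3 sh1 libraries. H2AFY was lower with sh1, with a difference of -0.17 (limma adjusted p = 0.0213), and all 3 sh1 libraries lay below all 3 sh3 libraries. The H2AFY difference missed the threshold without sh3 C (-0.15, limma adjusted p = 0.0732), without sh1 C (-0.15, limma adjusted p = 0.066), without sh3 A (limma adjusted p = 0.0754) and with no trend in the variance prior (limma adjusted p = 0.0882).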

How the results depend on the processing

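Leaving out single libraries changed the calls most. Calls over all tested genes moved too, from 1768 for the knockdown with all libraries. They numbered 1898, 1352 and 1846 without sh1 A, B or C, and 1219, 1270 and 1716 without sh3 A, B or C. They also fell when either control was left out, and were 1292 with the replicate block and 744 with no variance trend. For knockdown against control the number of called histone genes, 7, ranged from 0 (without control C) to 8 (without sh1 A), for sh1 from 0 to 3 against 2, for sh3 from 3 to 9 against 8, and for sh1 against sh3 from 1 to 7 against 2. For the knockdown it was 3 without control A, sh1 B or sh3 B, and 4 without sh1 C or sh3 A. With sh3 it was 5 without control A or sh3 C, and 3 without control C. With sh1 it was 1 without control A or sh1 B, and 0 without control C. Between constructs it was 7 without sh1 A and 1 without sh1 C or sh3 C. Called genes among the 76 supply genes (biogenesis and chaperone lists) ranged from 2 (without control C) to 13, against 13 with all libraries, with 6 without control A. The variant median, -0.09, ranged from -0.131 (without control A) to -0.0396 (without control C), and was -0.0235 with no filter on low values. The replication-dependent median, 0.24, stayed above 0, from 0.0976 (without control C) to 0.354 (without control A).

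With the replicate block the counts were 3 for the knockdown, 1 for sh1 and 5 for sh3, and same-letter libraries of sh1 and sh3 correlated at -0.039, -0.054 and -0.062. With no trend in the variance prior they were 3 for the knockdown, 1 for sh1 and 1 for sh1 against sh3, and 4 for supply genes. Without the trend the knockdown calls of H1FX, H2AFY, H3F3A, H3F3B and HIST1H2BF were lost, HIST1H3C was gained, and 2 of the 7 remained. The change of HIST1H3H, 0.14, ranged from -0.202 (without control C) to 0.48 (without control A), and that of SLBP, 0.0099, from -0.0465 (without control A) to 0.0662 (without control C), with -0.00125 without sh1 C. The other pseudocounts and median centring kept the 7 calls. The cause of these shifts was not tested. With 2 controls and a median standard error of 0.23, small changes of replication-dependent genes were not detectable.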
